A study of Mus musculus with 7 samples.

Results

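The proteasome is the main protease of the cell for ubiquitin-tagged proteins, and the 44 genes described here carry the symbols of its subunits and activators. They were chosen by their symbols, as every gene whose symbol starts with *Psma*, *Psmb*, *Psmc*, *Psmd* or *Psme* followed by a digit, with *Psmb11* left out because it served to gate cortical cells. They are 44 of the 20839 genes listed in any library, and 43 of them were listed in all 7 libraries. The libraries hold droplet-based scRNA-seq of EpCAM+ CD45- thymic epithelial cells (TECs) of C57BL/6 mice, each from 3 pooled thymi, so that a library has no replicate animals within it. The lineage tracing library came from *Aire*-CreERT2-R26-CAG-Stopfl-zsGreen mice aged 6 weeks that had 2 mg doses of tamoxifen on alternate days over 10 days, in which ZsGreen marks cells that have expressed *Aire* together with their progeny. The 2 control libraries came from mice given 3 treatments of 100 µg isotype antibody and collected at week 2 (4 weeks of age) or week 10 (12 weeks of age). The other 4 libraries came from mice given 3 treatments of 100 µg anti-RANKL, an antibody against the cytokine that drives the maturation of medullary TECs, and collected at week 2, 4, 6 or 10, at 4, 6, 8 or 12 weeks of age. An antibody reaches every RANKL-responsive cell of the mouse and is no model of a loss within TECs alone.

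The 20S core of the proteasome is built of alpha rings and beta rings, and its catalytic sites lie in the subunits beta1, beta2 and beta5. The constitutive forms are encoded by *Psmb6*, *Psmb7* and *Psmb5*, and the forms of the immunoproteasome, which interferon-gamma is known to induce and which favours peptides that fit MHC class I, by *Psmb9*, *Psmb10* and *Psmb8*. Cortical TECs carry the thymoproteasome, in which the product of *Psmb11* (beta5t) sits beside those of *Psmb9* and *Psmb10*, and which is known for its part in the selection of CD8 T cells. The core is opened by the 19S particle, made of ATPases (*Psmc* genes) and non-ATPases (mostly *Psmd* genes), or by the activators PA28 alpha and beta (*Psme1*, *Psme2*), PA28 gamma (*Psme3*) and PA200 (*Psme4*). The symbols also take in *Psmd5*, *Psmd9* and *Psmd10*, which encode assembly chaperones, *Psma8*, which encodes a testis subunit, and *Psmc3ip*, which encodes a recombination factor and no subunit. *Psme2b* is a near-identical copy of *Psme2*, so that reads may be split or lost between both and their levels are uncertain.

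RefSeq (GRCm38.p6) gave a promoter for 37 of the 44 genes. The bases before the start are printed for *Psme2* and *Psmb10*, which were higher in *Aire*-expressing cells than in *Ccl21a*-expressing and tuft cells in the results that follow, and for the constitutive subunits *Psmb5* and *Psmb6*. They run 5′ to 3′ on the strand of the gene and end before its start in both RefSeq and GENCODE vM21. Capitals mark an antioxidant response element (TGAC, any 3 bases, GC, on either strand), through which *Nfe2l2* is known to act.
Psme2 (chr14:55591114-55591351, minus strand): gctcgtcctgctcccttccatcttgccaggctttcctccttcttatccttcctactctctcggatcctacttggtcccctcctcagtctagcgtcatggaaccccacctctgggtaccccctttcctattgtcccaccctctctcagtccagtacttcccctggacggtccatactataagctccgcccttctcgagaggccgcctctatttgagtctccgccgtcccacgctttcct
Psmb10 (chr8:105938445-105938642, minus strand): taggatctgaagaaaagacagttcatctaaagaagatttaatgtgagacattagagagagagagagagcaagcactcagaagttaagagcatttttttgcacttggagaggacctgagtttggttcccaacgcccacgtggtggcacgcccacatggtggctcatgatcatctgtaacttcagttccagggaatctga
Psmb5 (chr14:54618023-54618245, minus strand): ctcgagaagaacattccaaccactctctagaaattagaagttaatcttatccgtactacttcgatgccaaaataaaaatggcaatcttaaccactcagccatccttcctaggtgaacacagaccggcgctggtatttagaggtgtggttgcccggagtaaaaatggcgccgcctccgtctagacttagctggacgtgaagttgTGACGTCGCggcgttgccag
Psmb6 (chr11:70525107-70525356, plus strand): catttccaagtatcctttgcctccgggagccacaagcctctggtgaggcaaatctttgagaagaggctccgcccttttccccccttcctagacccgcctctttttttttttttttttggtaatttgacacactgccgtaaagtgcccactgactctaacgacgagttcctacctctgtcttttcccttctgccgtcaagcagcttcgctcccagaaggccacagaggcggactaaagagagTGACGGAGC
The element was found within 250 bases before the start in 5 of the 37 genes, namely *Psmb5*, *Psmb6*, *Psmc6*, *Psmd12* and *Psmd9*, and in 11.5% of the 27025 genes with a promoter. A gamma-activated site (TTC, any 3 bases, GAA), known from genes that interferon-gamma induces, was found in 1 of the 37, *Psmb8*, and in 8.13% of all genes. It is printed in capitals with its flanks because *Psmb8* was the only one of the 37 genes to hold it.
Psmb8 (chr17:34198088-34198116, plus strand): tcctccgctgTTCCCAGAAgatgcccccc
This site lies before the RefSeq start of *Psmb8* but within the longer gene of GENCODE. The interferon-stimulated response element (GAAA, any 2 bases, GAAA) was found in 3 of the 37 genes (*Psmb3*, *Psmd4* and *Psmd9*) and in 3.46% of all genes, and the kappa B consensus in 3 (*Psma7*, *Psmd12* and *Psme1*) and in 9% of all genes. A match describes the letters of a window and is not a binding site. In GENCODE vM21 (mm10) *Psmb8* (chr17:34197721-34201454, plus strand) and *Psmb9* (chr17:34181987-34187764, minus strand) lie on either side of *Tap1* (chr17:34187553-34197225, plus strand), a subunit of the peptide transporter, and the starts of *Psmb9* and *Tap1* overlap on opposite strands. *Psme1* (chr14:55578123-55581529, plus strand) and *Psme2* (chr14:55587441-55591113, minus strand) are neighbours as well, and *Psmb10* lies apart (chr8:105935735-105938444, minus strand).

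Cells with no UMI (a tag that counts single RNA molecules) of the leukocyte gene *Ptprc* were placed in 4 gates on the deposited scale: *Aire* above 1.5, *Ccl21a* above 4, *Trpm5* above 0 (tuft gate), and at least 2 of *Psmb11*, *Ackr4* and *Prss16* above 0 (cortical gate). Of 8453 cells 8048 had no *Ptprc* UMI and at least 2000 UMIs. Of these, 5115 passed exactly 1 gate and were used, 1579 in the *Aire* gate, 2771 in the *Ccl21a* gate, 303 in the tuft gate and 462 in the cortical gate, while 756 passed more than 1 gate and 2177 none. The fewest cells were 13 in the tuft gate at week 6 and 18 in the *Aire* gate at week 4 after anti-RANKL. Median depth was 4299.5 to 16809 UMIs per cell, 50 barcodes occurred in more than 1 library, and UMIs of the Y-linked genes *Ddx3y* and *Eif2s3y* were listed in the lineage tracing library alone. Markers that the gates did not use were examined: *Fezf2*, *Cd80*, *Cd86* and *Tnfrsf11a* summed to 7.08 to 11.4 UMIs per 10000 in the *Aire* gate and to at most 3.01 in the others, and the sums were, for *Krt5*, *Krt14* and *Ccl19*, 44.0 to 58.1 against at most 19.3 for the *Ccl21a* gate and, for *Dclk1*, *Avil*, *Pou2f3* and *Gnb3*, 9.08 to 30.2 against at most 1.13 for the tuft gate. *Ccl19* by itself did not set the *Ccl21a* gate apart, with a mean of 9.03 in the *Aire* gate (7.11 to 11.6) and 6.92 in the *Ccl21a* gate (2.86 to 12.2). The cortical markers *Cxcl12*, *Ly75*, *Ccl25* and *Dll4* summed to 13.2 to 40.7 in the cortical gate but to 4.23 to 23.2 in the *Aire* gate. Most of the latter was *Ccl25* (mean 9.49), which overlapped between both gates, as did *Dll4*, while *Cxcl12* (0.0706 to 0.836 against 7.89 to 17.4) and *Ly75* (0.0958 to 0.319 against 0.642 to 1.79) were higher in the cortical gate without overlap.

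Levels are the mean over cells of UMIs per 10000 UMIs of the cell, which has the same expectation at any depth. Gates were compared over the 7 libraries by limma with the library as a block, on log2(level + 0.1), over the 8867 genes with a mean level of at least 0.1, and a gene was called at a Benjamini-Hochberg adjusted p under 0.05. Of the 44 genes 43 passed this filter. The other, *Psma8*, was listed in 1 library only, week 10 after anti-RANKL, so that its level in the other 6 is not known and was taken as 0 for the filter. Where listed, it was at 0.00237 in the *Aire* gate and 0.0404 in the tuft gate. The libraries differ in treatment and age and are pools of mice. With the library as a block, the p-values rest on how differences between gates vary from library to library, pooled over the 4 gates. In the series of 7 values below, the order is throughout lineage tracing, week 2 control, week 10 control, and week 2, 4, 6 and 10 after anti-RANKL.

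The first comparison was that of the catalytic subunits between TEC populations. The 3 immune subunits did not move together: *Psmb10* was highest in the *Aire* gate, *Psmb9* in the cortical gate, and *Psmb8* was not called between the *Aire*, *Ccl21a* and cortical gates. Of the constitutive subunits, only *Psmb7* was called, higher in the *Aire* gate.

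The level of *Psmb10* (beta2i) in the *Aire* gate was 6.03, 6.08, 5.27, 7.63, 8.08, 4.17 and 5.27 UMIs per 10000. In the *Ccl21a* gate it was 2.44, 2.95, 2.74, 2.51, 2.57, 2.18 and 2.12, and each value of the *Aire* gate lay above all of these. The log2 difference was 1.22 (SE 0.140, adjusted p = 5.18e-08), higher in 7 of 7 libraries. In the tuft gate the level was 1.59, 2.02, 1.76, 1.89, 1.31, 2.28 and 1.59, again without overlap, and the *Aire* gate was higher by 1.71 (SE 0.140, adjusted p = 1.12e-10). The cortical gate, where beta2i is part of the thymoproteasome, stood between, at 4.15, 4.18, 4.55, 3.52, 4.37, 3.54 and 6.12. It was above the *Ccl21a* gate in every library, by 0.76 (SE 0.140, adjusted p = 0.000246). The *Aire* gate was above the cortical gate by 0.46 (SE 0.140, adjusted p = 0.00742), with overlapping ranges. This call was lost without the week 2 anti-RANKL library (0.36, adjusted p = 0.0576), with stricter gates (0.03, adjusted p = 0.892) and with gates applied after thinning each cell to 2000 UMIs (0.01, adjusted p = 0.973). The *Aire* gates with the highest *Psmb10*, at week 2 and 4 after anti-RANKL, were also those with the highest sum of cortical markers, 19.8 and 23.2 against at most 7.22 in the other 5. This sum was carried by *Ccl25* (at most 22.5 in any *Aire* gate), with *Cxcl12* at most 0.836 and *Ly75* at most 0.319, and its part in the result was not tested. *Psmb9*, which is high in the cortical gate, was at 1.44 and 2.86 in these *Aire* gates, the lowest and the highest of the 7.

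The level of *Psmb9* (beta1i) was highest in the cortical gate, at 4.7, 3.97, 6.14, 3.29, 4.68, 4.01 and 6.46. In the *Aire* gate it was 2.06, 1.69, 2.39, 1.44, 2.86, 2.1 and 1.85 and in the *Ccl21a* gate 3.13, 2.79, 2.86, 2.14, 2.28, 2.07 and 2.71, all below the lowest cortical value. The log2 difference was -1.16 (SE 0.130, adjusted p = 2.91e-08) for *Aire* minus cortical and 0.84 (SE 0.130, adjusted p = 2.50e-05) for cortical minus *Ccl21a*, and both calls held under the 24 alternatives run. The *Aire* and *Ccl21a* gates overlapped, and their log2 difference of -0.32 (SE 0.130, adjusted p = 0.0467) lost its call under 15 of 24 alternatives, among them leaving out the lineage tracing library, either control, or week 2 or week 10 after anti-RANKL (-0.33 to -0.26). In the tuft gate the level was 1.54, 1.64, 1.53, 1.53, 2.18, 1.73 and 1.27, and its difference from the *Aire* gate (0.30, adjusted p = 0.0562) did not pass. With gates applied after thinning it did (0.59, adjusted p = 0.00343).

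*Psmb8* (beta5i) takes the place that *Psmb11* fills in cortical cells. Its level was 4.47, 3.14, 3.6, 2.36, 2.24, 2.35 and 3.1 in the *Aire* gate and 4.04, 3.74, 3.79, 2.13, 1.93, 2.28 and 3.65 in the *Ccl21a* gate. In both gates the values at week 2, 4 and 6 after anti-RANKL were the lowest, and the log2 difference between the gates was -0.0017 (95% interval -0.22 to 0.22, adjusted p = 0.993). The cortical gate had 2.77, 2.93, 2.52, 2.0, 2.16, 2.11 and 3.49, and neither *Aire* minus cortical (0.22, adjusted p = 0.0968) nor cortical minus *Ccl21a* (-0.22, adjusted p = 0.196) passed. *Aire* minus cortical gained a call under 6 of 24 alternatives. Tuft cells had 3.2, 2.5, 3.07, 1.97, 2.18, 1.3 and 2.54, and the *Aire* gate was higher by 0.34 (SE 0.108, adjusted p = 0.0109), in 7 of 7 libraries. That call was lost under 4 of 24 alternatives.

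**Figure D1:**
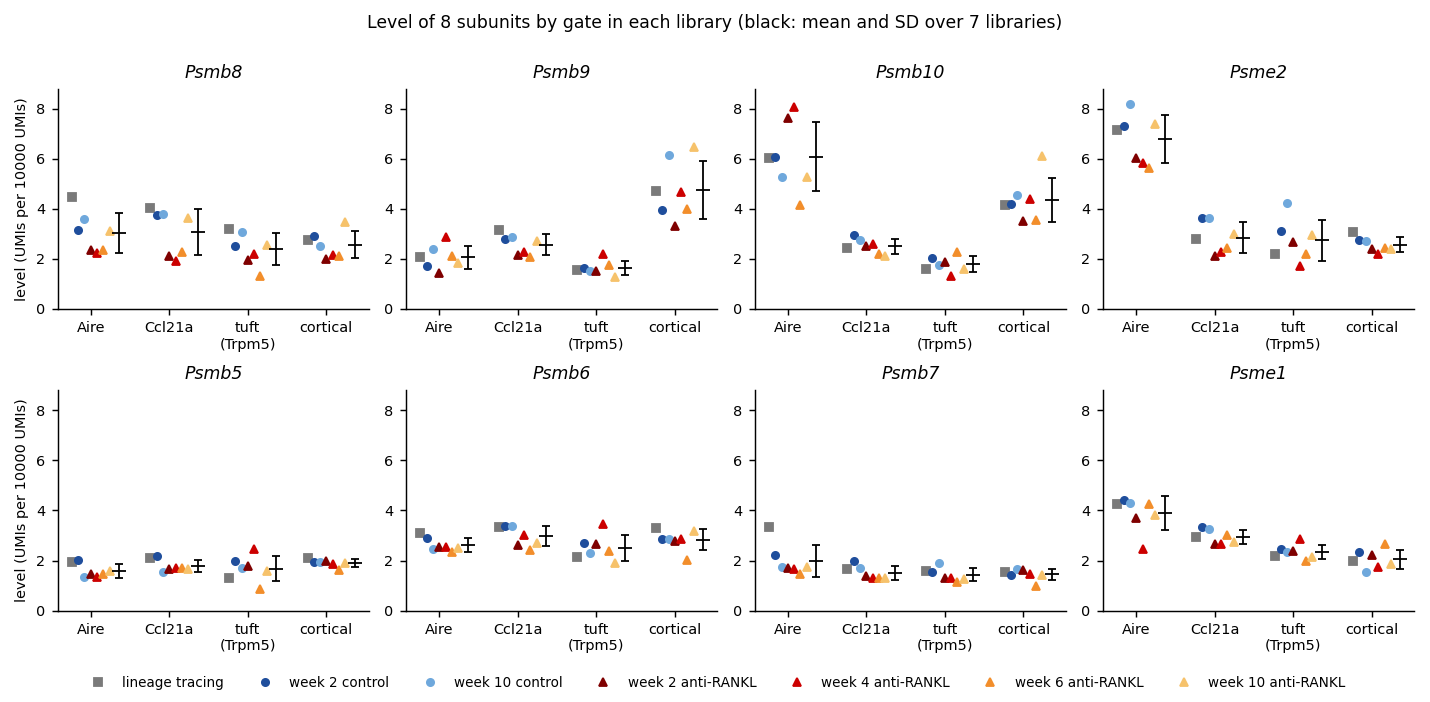
Level (mean UMIs per 10000 UMIs of a cell) of 8 subunits in the 4 gates, with 1 point per library and the mean and SD over 7 libraries in black. *Psmb10* (6.07 ± 1.38) and *Psme2* (6.79 ± 0.956) stood highest in the *Aire* gate and *Psmb9* (4.75 ± 1.17) in the cortical gate.

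*Psmb5* (beta5) and *Psmb6* (beta1), constitutive partners of *Psmb8* and *Psmb9*, were called in none of the 4 comparisons. The level of *Psmb5* was 1.95, 2.01, 1.35, 1.45, 1.32, 1.47 and 1.58 in the *Aire* gate and 2.12, 2.16, 1.53, 1.67, 1.71, 1.71 and 1.68 in the *Ccl21a* gate. It was 1.28, 2.0, 1.71, 1.78, 2.47, 0.869 and 1.6 in the tuft gate and 2.11, 1.94, 1.93, 1.96, 1.87, 1.62 and 1.92 in the cortical gate, all overlapping. The 95% interval of *Aire* minus cortical, -0.53 to 0.02, was the one that reached farthest from 0 for *Psmb5*. That difference gained a call under 4 of 24 alternatives. The level of *Psmb6* was 3.09, 2.92, 2.45, 2.52, 2.53, 2.35 and 2.48 in the *Aire* gate and 3.33, 3.37, 3.37, 2.61, 3.02, 2.43 and 2.71 in the *Ccl21a* gate. It was 2.12, 2.7, 2.31, 2.68, 3.46, 2.36 and 1.9 in the tuft gate and 3.3, 2.86, 2.86, 2.77, 2.85, 2.02 and 3.16 in the cortical gate, and these ranges overlapped too. For *Psmb6*, *Aire* minus *Ccl21a* and *Aire* minus tuft each gained a call under 1 of 24 alternatives.

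*Psmb7* (beta2), the partner of *Psmb10*, was at 3.33, 2.23, 1.73, 1.71, 1.65, 1.45 and 1.76 in the *Aire* gate and at 1.68, 1.98, 1.71, 1.39, 1.29, 1.28 and 1.29 in the *Ccl21a* gate. The *Aire* gate of the lineage tracing library stood above the rest. In the tuft gate *Psmb7* was at 1.6, 1.54, 1.9, 1.32, 1.31, 1.15 and 1.27 and in the cortical gate at 1.56, 1.44, 1.66, 1.61, 1.46, 0.999 and 1.41. The *Aire* gate was higher by 0.33 (SE 0.113, adjusted p = 0.0188) against the *Ccl21a* gate, by 0.39 (adjusted p = 0.00536) against the cortical gate and by 0.40 (adjusted p = 0.00453) against tuft cells. The first of these calls was lost without the lineage tracing library (0.23, adjusted p = 0.104) and without the week 10 anti-RANKL library (0.32, adjusted p = 0.0568), without the replicate block (0.33, adjusted p = 0.0795) and with gates applied after thinning (0.27, adjusted p = 0.202). The call against the cortical gate was lost with stricter gates (0.31, adjusted p = 0.0628). After a single random thinning of every cell to 2000 UMIs none of the 3 passed (0.27, adjusted p = 0.292, 0.44, adjusted p = 0.0607 and 0.30, adjusted p = 0.209).

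The balance of immune over constitutive subunits was taken as log2 of the summed level of *Psmb8*, *Psmb9* and *Psmb10* over that of *Psmb5*, *Psmb6* and *Psmb7*. Capture differs between genes, so the ratio is read between gates only, as a description with no test. It was 0.90 ± 0.27 (SD, n = 7) in the cortical gate, 0.86 ± 0.25 in the *Aire* gate, 0.36 ± 0.15 in the *Ccl21a* gate and 0.06 ± 0.24 in the tuft gate. The ranges of the *Aire* gate (0.59 to 1.26) and the cortical gate (0.47 to 1.31) overlapped, and that of the *Ccl21a* gate (0.17 to 0.58) ended just below the *Aire* range. The distance between the *Aire* and cortical gates depended on the gating and the cells used, at 0.87 ± 0.23 against 1.29 ± 0.26 with gates applied after thinning and 0.85 ± 0.20 against 1.16 ± 0.31 (n = 6) with stricter gates. The *Aire* gate was the higher after a single thinning (0.98 against 0.85) and with at least 4000 UMIs (0.88 against 0.83). It was so too without cells with *Mki67* or *Top2a*, the deepest 5% of cells, or the week 6 or week 10 anti-RANKL library. *Psmb9* over *Psmb6* was 0.72 ± 0.33 in the cortical gate and -0.38 ± 0.38 in the *Aire* gate, against -0.22 ± 0.13 in the *Ccl21a* gate and -0.61 ± 0.13 in tuft cells. *Psmb8* over *Psmb5* had another order, with 0.91 ± 0.30 in the *Aire* gate, 0.73 ± 0.42 in the *Ccl21a* gate, 0.53 ± 0.49 in tuft cells and 0.41 ± 0.27 in the cortical gate, all overlapping. *Psmb10* over *Psmb7* was 1.64 ± 0.48 in the *Aire* gate and 1.58 ± 0.32 in the cortical gate, against 0.73 ± 0.16 and 0.30 ± 0.38 in the *Ccl21a* gate and tuft cells. Over the 28 profiles (4 gates in 7 libraries) Pearson's r of the log2 levels was 0.13 for *Psmb8* and *Psmb9*, 0.19 for *Psmb8* and *Psmb10* and 0.38 for *Psmb9* and *Psmb10*, where the 136 pairs of 19S subunits had a median of 0.44 (-0.34 to 0.83) and the 3 pairs of constitutive catalytic subunits one of 0.35 (0.25 to 0.63). These profiles share libraries and are not independent.

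**Figure D2:**
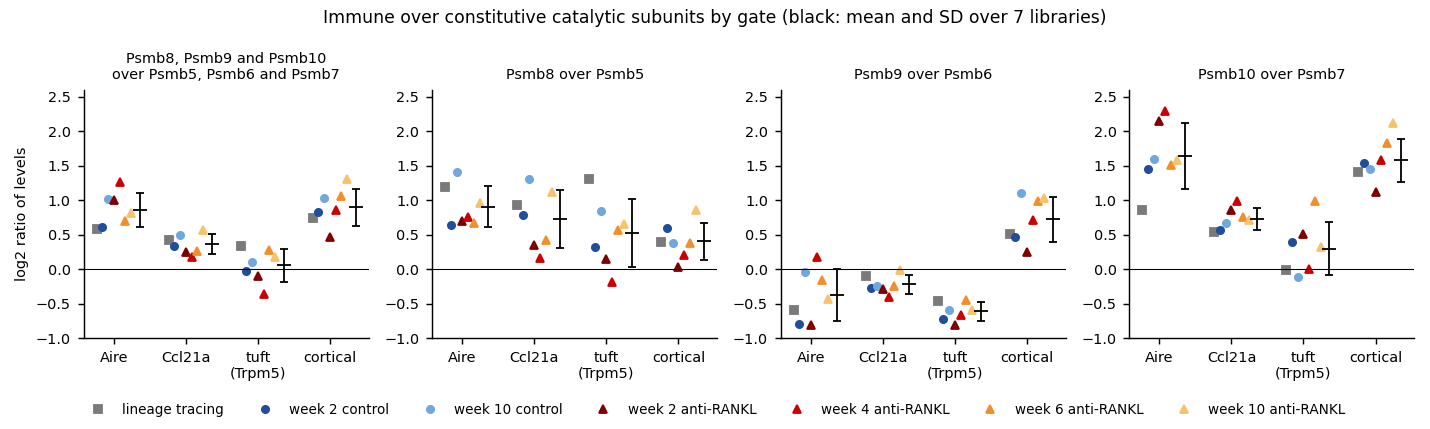
Log2 ratio of immune over constitutive catalytic subunits in the 4 gates, for the summed levels and for each pair, with 1 point per library and the mean and SD over 7 libraries in black. The summed ratio averaged 0.86 in the *Aire* gate and 0.90 in the cortical gate, with overlapping ranges. For *Psmb9* over *Psmb6* the lowest library of the cortical gate (0.25) lay above the highest of the *Ccl21a* (-0.0023) and tuft (-0.45) gates.

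In the PA28 activator *Psme2* set the *Aire* gate apart from the other 3. *Psme2* (PA28 beta) was at 7.13, 7.3, 8.19, 6.03, 5.84, 5.64 and 7.38 in the *Aire* gate. It was at 2.81, 3.65, 3.62, 2.1, 2.26, 2.43 and 3.0 in the *Ccl21a* gate, at 2.2, 3.13, 4.24, 2.69, 1.73, 2.21 and 2.93 in the tuft gate and at 3.08, 2.75, 2.69, 2.37, 2.18, 2.45 and 2.39 in the cortical gate. Every value of the *Aire* gate lay above all values of the other gates. The log2 difference was 1.25 (SE 0.103, adjusted p = 1.89e-10) against the *Ccl21a* gate, 1.37 (SE 0.103, adjusted p = 3.58e-11) against the cortical gate and 1.32 (SE 0.103, adjusted p = 4.70e-11) against tuft cells. The 3 calls held under each of the 24 alternatives, with differences from 0.99 to 1.67 over all of them. Cortical minus *Ccl21a* did not pass (-0.12, adjusted p = 0.516, 95% interval -0.33 to 0.09). With gates applied after thinning it did (-0.34, adjusted p = 0.0378).

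*Psme1* (PA28 alpha), whose product forms a ring with that of *Psme2*, moved the same way by less. It was at 4.27, 4.42, 4.31, 3.71, 2.45, 4.24 and 3.81 in the *Aire* gate and at 2.95, 3.34, 3.26, 2.65, 2.66, 3.02 and 2.75 in the *Ccl21a* gate, a log2 difference of 0.37 (SE 0.118, adjusted p = 0.0123). The lowest of the *Aire* values came from the 18 cells at week 4 after anti-RANKL. *Psme1* was at 2.18, 2.44, 2.36, 2.39, 2.86, 1.97 and 2.14 in the tuft gate and at 1.98, 2.32, 1.55, 2.22, 1.72, 2.65 and 1.87 in the cortical gate. The *Aire* gate was higher than both, by 0.70 (adjusted p = 1.97e-05) and 0.89 (adjusted p = 4.61e-07), and the cortical gate was lower than the *Ccl21a* gate (-0.52, adjusted p = 0.00229), a call lost after thinning (-0.40, adjusted p = 0.123). The *Psme1* range of the *Aire* gate overlapped that of each other gate. Summed, *Psme1* and *Psme2* were at 4.95 to 9.55 in cells that passed no gate, which overlapped the *Aire* gate at 8.30 to 12.5. Over the 28 profiles *Psme1* and *Psme2* had r = 0.73, and *Psme2* and *Psmb10* r = 0.63.

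*Psme3* (PA28 gamma, found in the nucleus) ranged from 0.457 to 0.684 in the *Aire* gate, against 0.219 to 0.408 in the *Ccl21a* gate and 0.163 to 0.364 in the cortical gate, with no overlap. The log2 differences were 0.92 (SE 0.170, adjusted p = 6.74e-05) and 0.96 (SE 0.170, adjusted p = 3.58e-05). Both calls were lost after a single random thinning of every cell to 2000 UMIs. Against tuft cells *Psme3* was higher too (0.50, adjusted p = 0.0161). *Psme4* (PA200) was not called, with means of 0.200 ± 0.0498 in the *Aire* gate and 0.224 ± 0.0394, 0.310 ± 0.165 and 0.120 ± 0.0360 in the *Ccl21a*, tuft and cortical gates. The copy *Psme2b* was higher in the *Aire* gate by 1.15, 1.06 and 1.62 against the *Ccl21a*, cortical and tuft gates. At week 6 after anti-RANKL it was at 4.04 in the *Aire* gate, against at most 1.52 in the other 6 libraries.

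Myeloid markers and depth moved with the *Aire* gate. *Lyz2*, *Tyrobp*, *Fcer1g*, *Itgax* and *Csf1r* summed to 2.8 to 10.0 there and to 0.129 to 0.881 in the *Ccl21a* gate. Most of the sum was *Lyz2* (mean 5.42), with *Csf1r* at 0.0475 and *Itgax* at 0.00505. T cell markers, of which 7 of 9 were listed, summed to 0.0557 to 1.36 in the *Aire* gate and to 0.0824 to 0.275 in the *Ccl21a* gate, and their part in the levels was not tested. In the 228 cells with a *Ptprc* UMI the mean level was 3.52 for *Psme2* (1.88 to 6.68 over the 7 libraries) and 2.93 for *Psmb10* (2.26 to 5.16 over the 7 libraries), both ranges overlapping with those of the *Aire* gate, and 3.98 for *Psmb8*. The *Aire* gate had the highest median depth of the 4 gates in 7 of 7 libraries. With gates applied after thinning, *Aire* minus *Ccl21a* held for *Psme2* (1.21, adjusted p = 1.45e-09) and *Psmb10* (1.16, adjusted p = 2.22e-08).

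The next comparison took in the rest of the particle. In the *Aire* gate against the *Ccl21a* gate 8 of the 43 genes were higher, where 18% of all genes tested were, and 15 lower, where 24.9% were. The median log2 difference was -0.20 over the members tested against -0.12 over all genes, and differences are to be read against this general shift. Without the week 2 control library the lower count was 7, where 21.2% of all genes were lower. Against the cortical gate 8 were higher (18.1% of all genes) and 18 lower (30.5%), with a median of -0.26 over the members tested against -0.17 over all genes. With each profile centred on its median gene, these counts were 11 higher and 9 lower, where 22.6% and 22.3% of all genes were. Against tuft cells 13 were higher (18.8%) and 0 lower (29.1%) by limma, with a median of 0.12 over the members tested against -0.12 over all genes. At an unadjusted p under 0.05 in either direction were 18 of the 43, where 4699 of the 8867 genes were. Centring gave 23 higher and 0 lower (26.5% and 19.8% of all genes), and leaving out the lineage tracing library gave 3 lower (26.3%). Between the cortical and *Ccl21a* gates 2 were higher, *Psmb9* and *Psmb10* (8.88% of all genes), and 1 lower, *Psme1* (6.32%), with a median of 0.01 over the members tested against 0.07 over all genes. The first 3 comparisons share the *Aire* gate and are not independent of each other.

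Of the 15 genes lower in the *Aire* than in the *Ccl21a* gate 11 encode subunits of the 19S particle, which binds and unfolds ubiquitin-tagged substrates. Of its 17 subunits with *Psmc* or *Psmd* symbols these 11 were lower than in the *Ccl21a* gate and 0 higher, where 24.9% of all genes were lower and 18% higher. The median of the 17 was -0.42, against -0.12 over all genes. *Adrm1* (-0.30, adjusted p = 0.0729) and *Shfm1* (0.15, adjusted p = 0.126), which also encode subunits of the particle, lie outside the 17 and were not called. Of the 6 ATPases all but *Psmc4* (-0.25, adjusted p = 0.128) were lower, and of the 11 non-ATPases 6 were. *Psmd1*, a scaffold of the particle's base, differed most (-0.58, adjusted p = 0.00132), at 0.772, 0.695, 0.666, 0.521, 0.211, 0.453 and 0.579 in the *Aire* gate and 0.867, 1.02, 1.01, 0.731, 0.671, 0.783 and 0.824 in the *Ccl21a* gate. *Psmd7*, the partner of the deubiquitinase subunit *Psmd14*, was at 1.32, 1.14, 0.989, 1.27, 0.925, 1.28 and 0.998 against 1.73, 1.86, 1.69, 1.59, 1.38, 1.7 and 1.91 (-0.54, adjusted p = 0.00639), with no overlap. The ATPase genes *Psmc6* (-0.52, adjusted p = 0.0183), *Psmc5* (-0.48, adjusted p = 0.027) and *Psmc2* (-0.45, adjusted p = 0.021) followed. *Psmd14* itself was not called (-0.18, adjusted p = 0.569). Without the week 2 control library 6 of the 17 were lower, where 21.2% of all genes were, and *Psmc6* (-0.49, adjusted p = 0.0564), *Psmc5* (-0.50, adjusted p = 0.0505) and *Psmc2* (-0.45, adjusted p = 0.0501) were no longer called. Those 3 calls were also lost without 1 to 2 other libraries each, week 2 after anti-RANKL for *Psmc6*, the week 10 control and week 4 after anti-RANKL for *Psmc5*, and week 4 and week 10 after anti-RANKL for *Psmc2*.

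Against the cortical gate 11 of the 17 were lower and 0 higher as well, where 30.5% of all genes were lower and 18.1% higher. The median of the 17 was -0.39 against -0.17 over all genes. Outside the 17, *Adrm1* was lower (-0.35, adjusted p = 0.0332) and *Shfm1* higher (0.19, adjusted p = 0.047). The largest differences of the 17 were *Psmc5* (-0.61, adjusted p = 0.00512), *Psmd2* (-0.57, adjusted p = 0.000466), *Psmd7* (-0.56, adjusted p = 0.00426) and *Psmd12* (-0.54, adjusted p = 0.00262). Against tuft cells 2 of the 17 were higher, *Psmc6* (0.48, adjusted p = 0.0261) and *Psmc4* (0.39, adjusted p = 0.0149), and 0 lower, where 18.8% of all genes were higher and 29.1% lower. Between the cortical and *Ccl21a* gates 0 of the 17 were called by limma, where 8.88% of all genes were called higher and 6.32% lower. At an unadjusted p under 0.05 were 0 of the 17, where 2312 of the 8867 genes were. The summed level of the 17 was 14.1 ± 2.13 (SD, n = 7) in the *Aire* gate, 14.2 ± 1.08 in tuft cells, 18.4 ± 2.27 in the *Ccl21a* gate and 18.8 ± 1.65 in the cortical gate. After centring, 9 of the 17 were lower than in the *Ccl21a* gate and 6 than in the cortical gate, where 22.2% and 22.3% of all genes were. After a single random thinning of every cell to 2000 UMIs 5 and 4 were lower (13.3% and 16.8% of all genes), and the calls of *Psmd1* (-0.61, adjusted p = 0.0827) and *Psmd7* (-0.45, adjusted p = 0.124) against the *Ccl21a* gate were among those lost. With gates applied after thinning 5 and 8 were lower (17.5% and 26.5% of all genes), and with stricter gates 6 and 10 (23% and 30%).

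The alpha ring, which controls the entry to the core, was split in the *Aire* gate. *Psma6* was higher than in the *Ccl21a* gate in 7 of 7 libraries, at 4.06, 3.5, 2.96, 3.13, 2.42, 1.56 and 2.72 against 2.13, 2.6, 2.11, 1.86, 1.33, 1.09 and 1.94 (0.61, adjusted p = 2.09e-05). After a single random thinning of every cell to 2000 UMIs this call was lost (0.45, adjusted p = 0.0784). *Psma4* was higher as well (0.46, adjusted p = 0.00026), and *Psma5* (-0.41, adjusted p = 0.00364) and *Psma7* (-0.28, adjusted p = 0.0227) were lower. *Psma1*, *Psma2* and *Psma3* were not called there. Against the cortical gate *Psma6* (0.60) and *Psma4* (0.35) were higher and *Psma5*, *Psma1* and *Psma2* lower. Against tuft cells *Psma4* (0.85, adjusted p = 3.25e-08), *Psma6* (0.84, adjusted p = 1.50e-07) and *Psma5* (0.46, adjusted p = 0.00113) were higher.

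Of the 4 beta subunits without a catalytic site, *Psmb3* was lower in the *Aire* gate than in the *Ccl21a* (-0.34) and cortical gates (-0.36). *Psmb4* was lower than in the cortical gate (-0.48) and higher than in tuft cells (0.28), and *Psmb1* and *Psmb2* were not called. Of the assembly chaperones *Psmd9* alone was called, lower in the *Aire* than in the cortical gate (-0.52). The summed level of the 44 genes was 74.0 ± 7.72 (SD, n = 7) in the *Aire* gate, 70.4 ± 7.93 in the *Ccl21a* gate, 73.5 ± 6.95 in the cortical gate and 56.7 ± 4.4 in tuft cells. Tuft cells also had the largest share of mitochondrial UMIs of the 4 gates in 7 of 7 libraries, 2.09 to 5.69% against 2.06 to 3.51% in the *Aire* gate, and its part in their low sum was not tested.

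**Figure D3:**
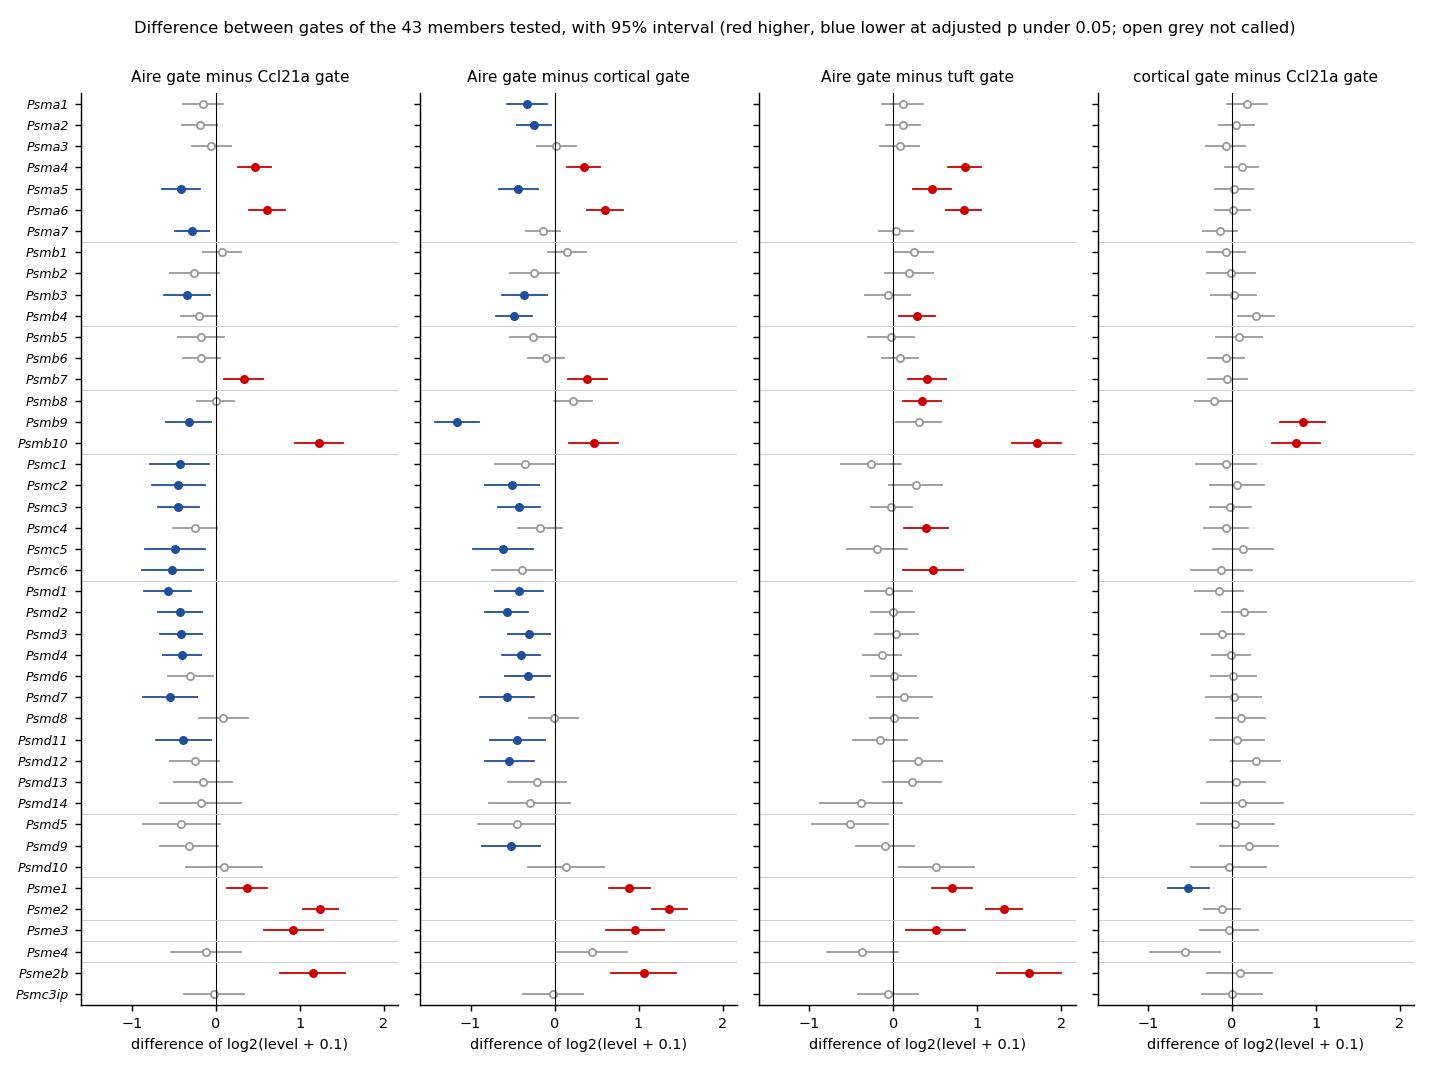
Difference of log2(level + 0.1) between gates for the 43 genes tested, ordered by role, with 95% intervals and with colour for genes called higher or lower at an adjusted p under 0.05. In the *Aire* gate *Psme2* and *Psmb10* stood out against the *Ccl21a* gate (1.25 and 1.22). Of the 17 subunits of the 19S particle with *Psmc* or *Psmd* symbols 11 were called lower against each of the *Ccl21a* and cortical gates, where 24.9% and 30.5% of all genes were, and 5 and 4 after thinning, or 6 against the *Ccl21a* gate without the week 2 control library.

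Other genes of the pathway were examined in lists. Of 9 genes that load peptides onto MHC class I, 6 were higher in the *Aire* gate than in the *Ccl21a* gate and 1 lower, where 18% and 24.9% of all genes were. The chaperone *Calr* (0.97, adjusted p = 5.52e-08), the loading factors *Tapbp* (0.53, adjusted p = 0.000935) and *Tapbpl* (0.54, adjusted p = 0.0155) and the light chain *B2m* (0.23, adjusted p = 0.0382) were among the former, and the transporter subunit *Tap2* was the latter (-0.91, adjusted p = 3.11e-05). Against the cortical gate 3 were higher and 1 lower (all genes 18.1% and 30.5%), and against tuft cells 7 were higher and 0 lower (all genes 18.8% and 29.1%). In the cortical gate 0 of the 9 were higher and 2 lower than in the *Ccl21a* gate (all genes 8.88% and 6.32%), *B2m* (-0.66, adjusted p = 3.11e-06) and *Tap2* (-0.47, adjusted p = 0.0443). *Tap1*, whose start overlaps that of *Psmb9*, was not called between the cortical and *Ccl21a* gates (-0.45, adjusted p = 0.05), where *Psmb9* was higher. The heavy chains *H2-K1* (-0.50) and *H2-D1* (-0.44) were lower in the cortical than in the *Ccl21a* gate.

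Of the regulators, *Nfe2l1* (-0.60, adjusted p = 0.0028) and *Nfe2l2* (-1.39, adjusted p = 1.70e-06), activators known to act on constitutive subunits, were lower in the *Aire* than in the *Ccl21a* gate. *Irf1* and *Nlrc5*, an activator of class I genes, were not called there. *Ubb*, which encodes ubiquitin, was lower as well (-0.62, adjusted p = 2.01e-08). Of the 9 assembly and accessory genes tested 0 were called between these gates by limma. At an unadjusted p under 0.05 was 1 of the 9, where 4389 of the 8867 genes were. Against the cortical gate 1 was higher and 4 lower, and against tuft cells 2 were higher and 1 lower, beside the same shares of all genes. *Pomp*, a chaperone of core assembly, was higher in the cortical than in the *Ccl21a* gate (0.33, adjusted p = 0.011). Of 8824 genes outside the 44, those most like *Psmb8* over the 28 profiles were *Dhx58* (Pearson's r = 0.71), *Chil4* (0.71), *Npc1* (0.70), *Casp1* (0.70) and *Serpinb1a* (0.70).

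The last comparison was between treatments. Each time point after anti-RANKL is 1 library, so no test was made, and a condition and its library cannot be told apart. *Psmb8* in the *Ccl21a* gate was at 3.77 ± 0.0322 (SD, n = 2) in the controls, at 2.13, 1.93 and 2.28 at week 2, 4 and 6 after anti-RANKL, and at 3.65 at week 10. Summed over cells, the week 2 control held 786 UMIs, 3.62 per 10000 (exact Poisson 95% interval 3.37 to 3.88) and the week 2 anti-RANKL library 1251 UMIs, 2.13 per 10000 (exact Poisson 95% interval 2.01 to 2.25). These intervals cover counting error only. *Psmb8* in the *Aire* gate was at 3.37 ± 0.330 (SD, n = 2) in the controls, and the 4 libraries after anti-RANKL, at 2.24 to 3.1, were below both of them. The lineage tracing library, which had no anti-RANKL, was above both controls, at 4.04 in the *Ccl21a* gate and 4.47 in the *Aire* gate.

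*Psme2* in the *Ccl21a* gate was also lowest at week 2, 4 and 6 after anti-RANKL, with 3.63 ± 0.0214 (SD, n = 2) in the controls, 2.1, 2.26 and 2.43 at week 2, 4 and 6, and 3.0 at week 10. The lineage tracing library, at 2.81, was below both controls and week 10 as well. *Psmb10* in the *Ccl21a* gate was at 2.85 ± 0.152 (SD, n = 2) in the controls and below both of them at week 2, 4, 6 and 10, at 2.51, 2.57, 2.18 and 2.12. The lineage tracing library was also below both, at 2.44, and below week 2 and 4 after anti-RANKL. In the *Aire* gate *Psmb10* was at 5.68 ± 0.571 (SD, n = 2) in the controls and at 7.63, 8.08, 4.17 and 5.27 at week 2, 4, 6 and 10, above both controls at week 2 and 4 and below both at week 6. *B2m* in the *Ccl21a* gate was at 114 and 115 in the controls and at 81.8, 70.5, 76.4 and 112 at week 2, 4, 6 and 10, low at the same times as *Psmb8*, with 102 in the lineage tracing library. The median depth of these cells was 14688.5 and 7001 UMIs in the controls and 11000, 5038, 4501 and 6141.5 at week 2, 4, 6 and 10, and the part of depth was not tested.

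**Figure D4:**
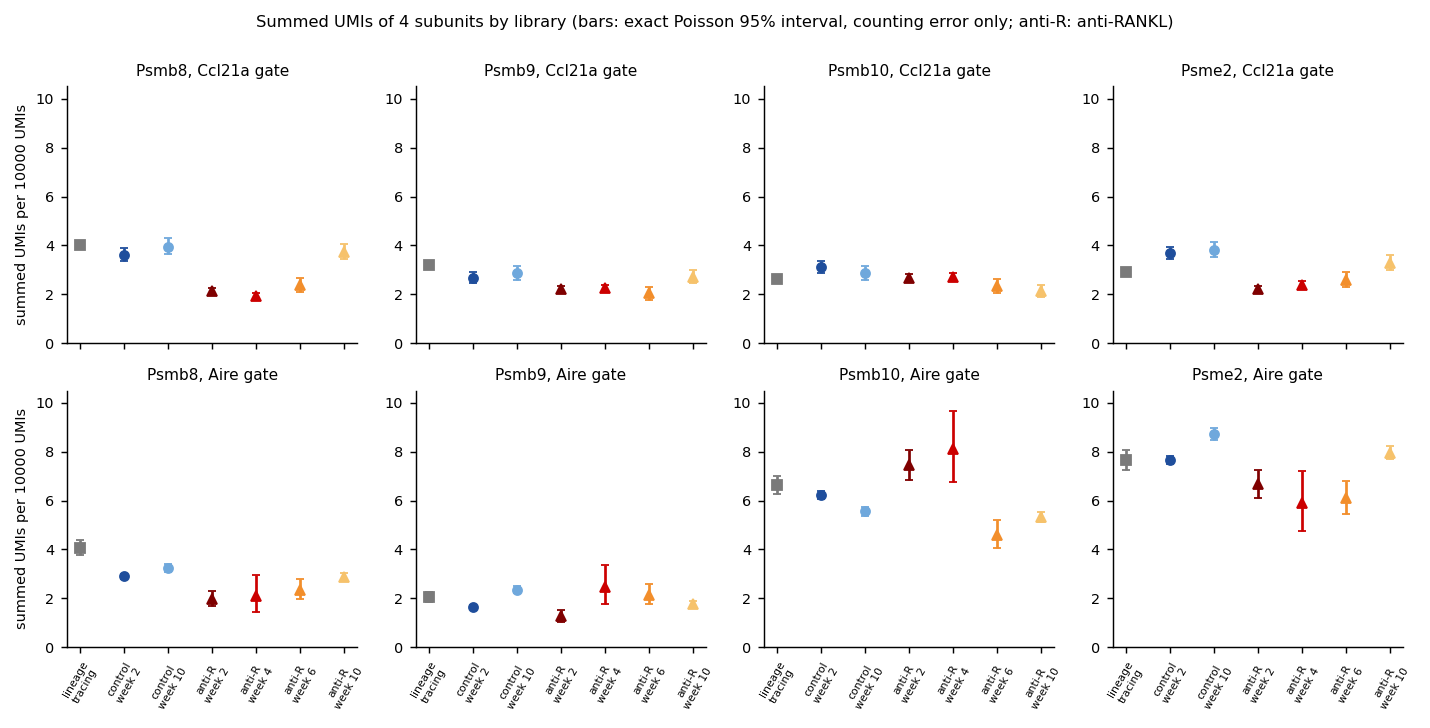
UMIs of 4 subunits summed over the cells of a library, per 10000 summed UMIs, in the *Ccl21a* and *Aire* gates, with exact Poisson 95% intervals that cover counting error only. In the *Ccl21a* gate *Psmb8* was at 3.62 in the week 2 control and at 2.13 in the week 2 anti-RANKL library.

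Libraries of the same age were also set side by side over the 2797 genes with a mean level of at least 0.5, among them 37 of the 44. In the *Ccl21a* gate at week 2, 37 of 37 were lower after anti-RANKL than in the control, where 55.8% of all genes were, with a median log2 difference of -0.28 against -0.04 over all genes. Of these *Psmb8* (-0.79) and *Psme2* (-0.77) were lower by at least 1.5-fold (5.83% of all genes), and 0 were higher by as much (3.86%). In the *Aire* gate at week 2, with 45 cells after anti-RANKL, 33 of 37 were lower (55.4% of all genes), with a median of -0.28 against -0.04. There 0 were lower by at least 1.5-fold (5.11%) and 1, *Psme2b*, was higher (0.66; 7.87% of all genes). At week 10 the medians were closer to 0. In the *Ccl21a* gate 26 of 37 were lower (48.9%), with a median of -0.08, and 0 passed 1.5-fold (4.18% of all genes higher, 3.32% lower). The *Aire* gate had 22 of 37 lower (47.4%), with a median of -0.01, and 0 passed 1.5-fold (0.608% higher, 0.894% lower). Genes of a library are not replicates, so these counts describe single pairs of libraries. The summed level of the 44 genes in the *Ccl21a* gate was 76.9, 81.7, 76.1, 63.9, 63.1, 61.5 and 69.8.

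Cells of the *Aire* gate with a UMI of *Mki67* or *Top2a*, genes of dividing cells, were set against the others in the 5 libraries with at least 10 of them. They were 15.9 to 34.0% of the *Aire* gate in these libraries (median depth 8166 to 21325.5 UMIs), against at most 21.1% of the tuft gate (4321 to 12071 UMIs). In any library they were at most 17.9% of the *Ccl21a* gate and 19.6% of the cortical gate. At week 2 and 4 after anti-RANKL they were 17.8% and 0% of the *Aire* gate. No cell is called dividing from such a UMI. Of the 37 genes 11 were higher in the cells with such a UMI in 5 of 5 libraries, where 20.1% of all genes were, among them *Psmb6* (3.05 ± 0.449 in cells with such a UMI and 2.49 ± 0.262 in the others, SD, n = 5). Of the 37, *Psmb8* and *Psmb10* were lower in 5 of 5, where 12.3% of all genes were. *Psmb8* was at 2.36 ± 0.221 in cells with such a UMI and 3.76 ± 1.16 in the others, and *Psmb10* at 5.0 ± 1.05 in cells with such a UMI and 5.48 ± 0.736 in the others. *Psmc3ip*, the recombination factor, was at 0.221 ± 0.0277 in cells with such a UMI and 0.0747 ± 0.0263 in the others. The cells with such a UMI were deeper, with medians of 9186 to 26986 UMIs against 8024.5 to 19445, and the part of depth in these values was not tested.

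In the lineage tracing library 74 cells had a ZsGreen UMI and no *Aire* UMI and passed no gate. *Psmb10* was at 1.81 (133 UMIs) in them, against 6.03 (1207 UMIs) in the *Aire* gate and 2.4 (104 UMIs) in the 64 cells with neither that passed no gate. *Psme2* was at 4.29 (339 UMIs), against 7.13 (1394 UMIs) and 3.62 (180 UMIs). *Psmb8* was at 3.86 (291 UMIs), against 4.47 (744 UMIs) and 3.99 (178 UMIs). *Psmb10* and *Psme2* in these ZsGreen cells were below the *Aire* gate, and *Psmb8* was below it by less, in 1 library without a replicate.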

How the data were processed

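Cells from 7 pools of thymi were profiled by droplet-based scRNA-seq. The submitters' processing notes name Cell Ranger 2.2.0, Seurat 2.3.4 and the mm10 build. The deposited values are natural log values that the authors made as ln(1 + UMIs per 10000 UMIs of the cell). The published methods give another scale factor, but the values of each cell summed to 10000 before the log. Whole UMI counts were recovered from them in every cell (tolerance 0.001). The 2 deposited tables that combine libraries (10760 columns) were not used. The removal of doublets was not given in the sources used here, and no caller was run. The 756 cells that passed more than 1 gate were left out of the comparisons.

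Levels were averaged per library and gate where at least 10 cells were present, and fitted with limma 3.58.1 in R 4.3.3 (empirical Bayes with a trend, library as a block, all 28 profiles together) on log2(level + 0.1), a scale that understates changes of low genes. No count model was used, although whole counts were recovered, and whether one would change the calls was not tested. The library is a block because its gates come from the same animals, and the fit without it is given as an alternative. A cell with a level of 0 for a gene may still express it, and depth limits what a single cell shows: the median was 4299.5 to 16809 UMIs. Poisson intervals (95%) cover counting error only. Treatments were compared as values, with 1.5-fold as a description. Named genes were any of the 44, with *Psmb5* to *Psmb10*, *Psme1* and *Psme2* in every library, the 5 largest called changes in each direction per comparison, fixed pathway lists (some of whose genes are not reported here), and the 5 genes most like *Psmb8*. The members, gates and lists were chosen with earlier results of these data known. Single-library tables were analysed in Python 3.11.15 (numpy 2.4.6, pandas 2.3.3, scipy 1.17.1). The spread of gate differences from library to library, which the p-values rest on, may in part be technical. Alternatives covered depth (a minimum of 4000 UMIs, thinning to 2000 UMIs), gates, filters, pseudocounts of 0.02 and 0.5, centring, weighting, the block and each library in turn.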

Additional observations from a re-analysis of the deposited data

Results flagged for a closer look

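For 9 genes and the ratio of immune over constitutive subunits, each in 4 gates, the highest and lowest of the 7 libraries were examined, and in 8 of 40 sets 1 library stood apart, with a gap to the next library, relative to the whole range, above Dixon's 95% critical value for 7 samples. Chance alone gives about 1 such set in 20. In 3 of the 8 the gene was *Psme2b*, the near-identical copy of *Psme2*, and the library week 6 after anti-RANKL, where its level was 4.04 UMIs per 10000 in the *Aire* gate (next highest 1.52), 1.39 in the *Ccl21a* gate (0.558) and 1.503 in the cortical gate (0.603). In the cortical gate of the same library *Psmb6* was lowest, at 2.02 (next lowest 2.77), as was *Psmb7*, at 0.999 (1.41). *Psmb7* in the *Aire* gate was highest in the lineage tracing library, at 3.33 (next highest 2.23). *Psmb10* in the cortical gate was highest at week 10 after anti-RANKL, at 6.12 (4.55), and *Psme1* in the *Aire* gate was lowest at week 4 after anti-RANKL, at 2.45 (next lowest 3.71).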

How the results depend on the processing

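The named member results (50, of which 36 were called) were recomputed under 24 alternatives each, 1200 in all: 1096 kept direction and call, 56 lost the call, 18 gained one and 30 turned direction. None of the 30 was a called result. The causes were not tested. The counts of members called moved by more than 1.5 times in these cases, each with the share of all genes called in the same setting in parentheses. A single random thinning to 2000 UMIs gave 4 higher (11%) and 6 lower (13.3%) for *Aire* minus *Ccl21a*. For *Aire* minus cortical it gave 5 higher (12.3%) and 8 lower (16.8%), and for cortical minus *Ccl21a* 0 lower (3.14%). Gates applied after thinning gave 7 lower (17.5%) for *Aire* minus *Ccl21a*, 1 lower (25.2%) for *Aire* minus tuft, and 4 higher (8.69%) and 3 lower (7.84%) for cortical minus *Ccl21a*. Stricter gates gave 5 higher (18.2%) for *Aire* minus cortical and 6 higher (9.99%) for cortical minus *Ccl21a*. Centring gave 9 lower (22.3%) for *Aire* minus cortical, 23 higher (26.5%) for *Aire* minus tuft and 2 lower (8.22%) for cortical minus *Ccl21a*. Weighting by cells gave 24 lower (39.7%) for *Aire* minus *Ccl21a*, 2 lower (32.3%) for *Aire* minus tuft and 2 lower (9.91%) for cortical minus *Ccl21a*. For *Aire* minus tuft, where 0 were lower, 2 were with at least 4000 UMIs (31.8%) and 3 with overlapping cells kept (33.5%). It was 1 each with no *Ptprc* filter (30.7%), without cells with *Mki67* or *Top2a* (28.6%), with a pseudocount of 0.5 (29.6%) and with at least 20 cells (31.4%). For cortical minus *Ccl21a* 2 were lower with no *Ptprc* filter (6.54%), with at least 20 cells (8.14%) and with only the gates compared (9.3%). Without the replicate block, which pairs gates of the same library, 7 were higher (16.2%) and 10 lower (22.5%) for *Aire* minus *Ccl21a*. For *Aire* minus cortical it was 8 (16.5%) and 14 (28.1%), and for *Aire* minus tuft 10 (16.8%) and 0 (27%). For cortical minus *Ccl21a* it was 2 (7.16%) and 2 (5.1%). Leaving out 1 library at a time gave 7 to 8 higher (15.8 to 19.1%) and 7 to 16 lower (20.5 to 27%) for *Aire* minus *Ccl21a*. For *Aire* minus cortical it gave 8 higher (15.9 to 19%) and 13 to 20 lower (26.5 to 33.8%). For *Aire* minus tuft it gave 10 to 15 higher (16.6 to 19%) and 0 to 3 lower (24.9 to 32.4%). For cortical minus *Ccl21a* it gave 2 higher (6.18 to 11.4%) and 1 lower (4.72 to 7.11%). The log2 ratio of immune over constitutive subunits was 1.29 in the cortical and 0.87 in the *Aire* gate with gates after thinning. The *Aire* ratio was above the cortical one with thinning (0.98 against 0.85), at least 4000 UMIs (0.88 against 0.83) and no cells with *Mki67* or *Top2a* (0.96 against 0.93). The same held with no deepest 5% of cells (0.95 against 0.91), and without week 6 (0.88 against 0.87) or week 10 after anti-RANKL (0.87 against 0.83). In the tuft gate the ratio, 0.06, became -0.13 with thinning, -0.0494 with gates after thinning, -0.0059 with summed UMIs, -0.0022 with at least 4000 UMIs, 0.18 with no *Ptprc* filter and 0.23 with overlapping cells kept, and 0.0147 to 0.13 leaving out 1 library at a time, all within 1 SD of the libraries. *Psmb8* *Aire* minus *Ccl21a* (-0.0017) became 0.0187 with thinning, 0.0109 with stricter gates, 0.0652 with gates after thinning, 0.0337 with no *Ptprc* filter, 0.13 with no cells with *Mki67* or *Top2a*, 0.11 with no deepest 5% of cells, 0.0083 with at least 20 cells, 0.0343 with centring and -0.0365 to 0.0394 leaving out 1 library at a time. *Psmb6* *Aire* minus cortical (-0.10) became 0.0374 with centring. *Psmb5* *Aire* minus tuft (-0.0267) became 0.0202 with summed UMIs, 0.0062 with gates after thinning, 0.0404 with no *Ptprc* filter, 0.16 with centring and -0.15 to 0.11 leaving out 1 library at a time. *Psmb6* *Aire* minus tuft (0.0802) became -0.22 with thinning and -0.0491 with overlapping cells kept. *Psmb5* cortical minus *Ccl21a* (0.0868) became -0.0076 with gates after thinning and -0.0153 with centring. *Psmb6* cortical minus *Ccl21a* (-0.0725) became 0.008 with stricter gates. *Psmb7* cortical minus *Ccl21a* (-0.0594) became 0.0277 with overlapping cells kept, 0.0185 with stricter gates, 0.0169 with weighting and -0.10 to 0.0036 leaving out 1 library at a time. *Psme2* cortical minus *Ccl21a* (-0.12) became 0.0032 with summed UMIs and 0.16 with overlapping cells kept. With gates after thinning it became -0.34 and gained a call (adjusted p = 0.0378). After thinning 15 of the 36 calls were lost, and the part of depth or level in this was not tested. For *Aire* minus *Ccl21a* they were *Psma6*, *Psmb7*, *Psmb9*, *Psmc2*, *Psmc5*, *Psmc6*, *Psmd1*, *Psmd7* and *Psme3*. For *Aire* minus cortical they were *Psmb7*, *Psmc5*, *Psmd7* and *Psme3*. The others were *Psmb7* for *Aire* minus tuft and *Psme1* for cortical minus *Ccl21a*. The smallest groups held 13 and 18 cells.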
